A study of Arabidopsis thaliana with 12 samples.

Results

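Rosettes of Arabidopsis thaliana plants that overexpressed LSD1 fused to a steroid-inducible domain (35S:LSD1-GR) and had been moved to medium with 30 µM dexamethasone were compared with untreated wild-type rosettes by RNA sequencing. The 6 libraries of this comparison, 3 per group, were chosen by their column labels and belong to a set of 12. All plants were of the accession Wassilewskija (Ws-0), 2 weeks old, and grown on Murashige and Skoog (MS) medium with 16 h of light per day. The treated plants, called LSD1-GR+DEX here, grew on a nylon mesh on which they were transferred to the dexamethasone medium. The other groups were untreated: the wild type (WT), 35S:LSD1-GFP plants, which overexpress LSD1 fused to green fluorescent protein, and the mutant lsd1-1, with 3 libraries each. The 35S promoter of both transgenes is active in nearly all tissues. No untreated LSD1-GR plants, no WT plants on dexamethasone and no line that carried the GR domain alone were among the libraries. The transgene, the hormone and the transfer therefore cannot be told apart in any difference given here. How long the plants stayed on dexamethasone, when in the day they were harvested and how many transgenic lines were used was not stated in the labels.

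LSD1 (LESION SIMULATING DISEASE 1) is a small zinc finger protein that restrains cell death in leaves; mutants without it form lesions that spread beyond their starting point under long days. The study's title names a role in holding other proteins together and one in regulating transcription. GR is the hormone-binding domain of the mammalian glucocorticoid receptor. Such fusions stay mainly in the cytosol until a steroid such as dexamethasone, which plants do not make, lets them enter the nucleus.

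Reads of LSD1 (AT4G20380) were counted first, since they check the labels; reads of the transgene and of the plant's own gene are counted together. LSD1 had 169, 218 and 147 CPM (reads of the gene scaled to the size and composition of the library) in LSD1-GR+DEX and 22.9, 22.2 and 25.7 CPM in WT. It had 2190, 2703 and 2159 CPM in LSD1-GFP, and at most 0.186 CPM in lsd1-1. The LSD1-GR+DEX libraries thus lay above every WT library and below every LSD1-GFP library, with 7.54-fold the WT level (log2 difference 2.92 ± 0.16, SE; adjusted p = 8.0e-08, edgeR quasi-likelihood test with Benjamini-Hochberg adjustment).

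The 12 libraries held 9781360 to 11503432 counts, and 19487 of 27416 genes had enough reads to be tested. In a principal component analysis the first axis carried 34.5% of the variance. On it LSD1-GR+DEX lay between 46.2 and 53.1, lsd1-1 between 3.82 and 14.0, and WT, which LSD1-GFP overlapped, between -36.5 and -24.7. The second axis, with 25.6% of the variance, held WT between 21.7 and 30.0 and LSD1-GFP apart from it, between -49.1 and -34.7. Replicate 2 of LSD1-GR+DEX stood apart from its fellows. Its counts differed from replicates 1 and 3 by 10.9 and 12.7 times the variance of pure counting error, whereas replicates 1 and 3 differed from each other by 2.16 times. In WT it was replicate 3 that stood apart, by 9.58 and 10.3 times from replicates 1 and 2, which differed from each other by 3.24 times. Most heat shock genes and oxidative stress markers were highest in replicate 2 in every group. Several results are also given without replicate 2 of LSD1-GR+DEX or without a WT library. In the 12 rosette samples, which are mixtures of cells, fewer cells of a type and less RNA per cell cannot be told apart.

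Against WT, 7015 genes (36.0% of those tested) differed at an adjusted p below 0.05 in this test: 3760 (19.3%) were higher in LSD1-GR+DEX and 3255 (16.7%) were lower. The differences of at least 2-fold were mostly rises, with 1248 genes higher and 414 lower. The LSD1-GR+DEX libraries did not overlap the WT libraries for 9164 genes (47.0%). Genes are grouped below by 35 lists of known function, which were chosen with earlier results of these data known. Their counts therefore describe the members and are not independent tests. Each list's counts are to be read against these shares and against the median difference of all genes tested, 0.01 on the log2 scale. Lists for oxidative stress, sulfate, heat shock, indole glucosinolates and flavonoids held the highest shares of risen members, and those for cytokinin response, morning clock genes and chlorophyll synthesis the highest shares of fallen members.

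**Figure D1:**
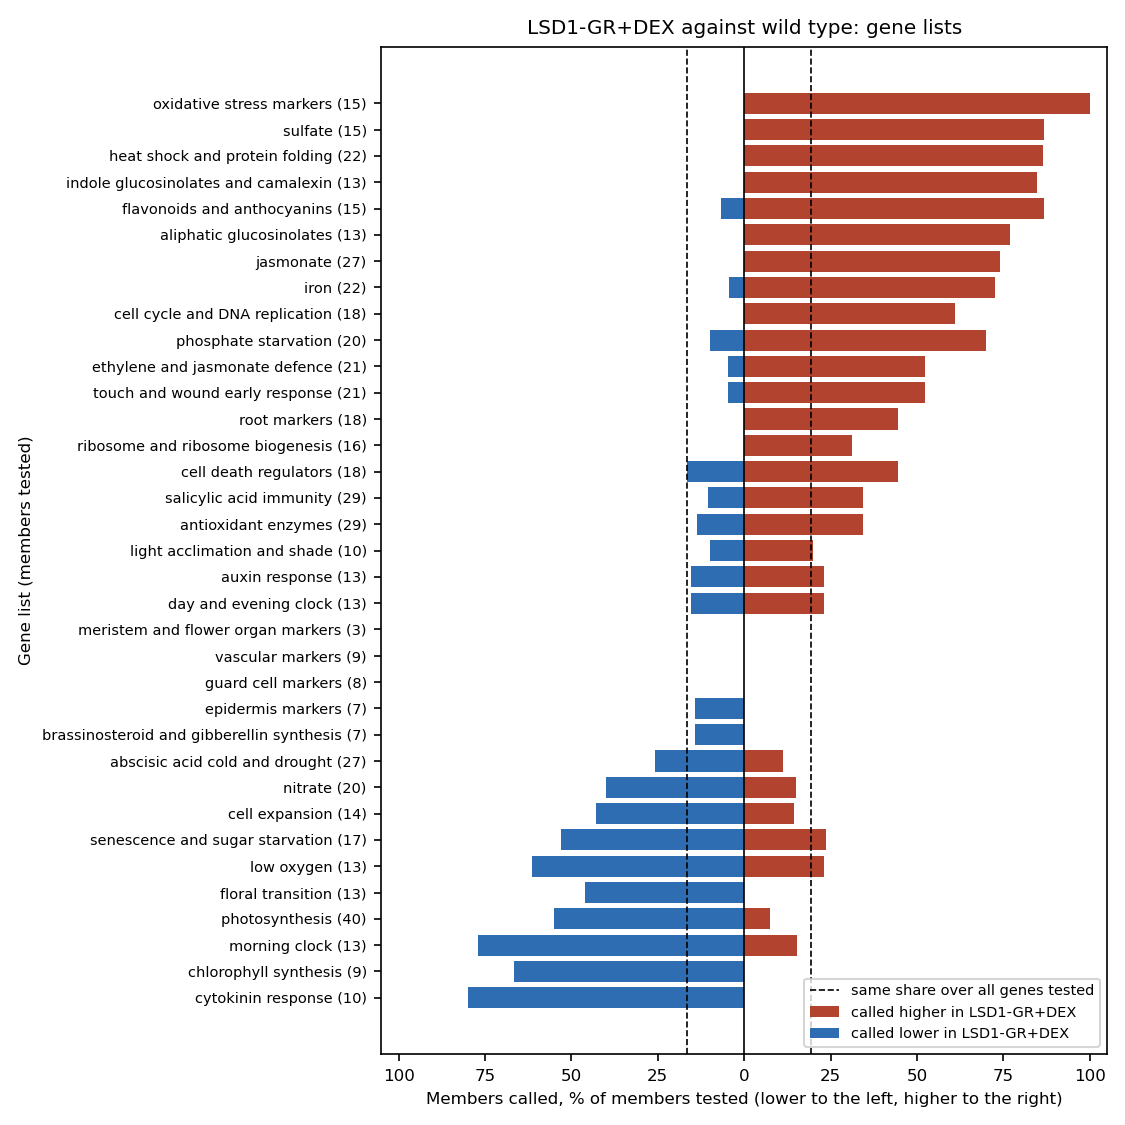
Share of the tested members of each gene list that were called higher (right, red) or lower (left, blue) in LSD1-GR+DEX than in WT, in percent, with the number of members tested in brackets; dashed lines mark the shares over all 19487 genes, 19.3% higher and 16.7% lower. All 15 oxidative stress markers were called higher, and 8 of 10 cytokinin response genes were called lower.

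Chaperone genes showed the largest rises. Of 22 tested genes for heat shock and protein folding, 19 rose against WT and none fell, with a median log2 difference of 3.89. HSP70 (AT3G12580), a cytosolic chaperone that refolds proteins, had 1693, 3422 and 1706 CPM in LSD1-GR+DEX and 55.5, 180.5 and 65.9 CPM in WT. Replicate 2 was the highest in both groups, and the groups did not overlap (22.6-fold; log2 4.50 ± 0.66, adjusted p = 0.00082). HSP90.1, the heat-inducible HSP90, had 995, 2511 and 1010 CPM in LSD1-GR+DEX against 25.1, 95.2 and 25.5 CPM in WT (log2 4.95 ± 0.80, adjusted p = 0.0014). The largest rises in CPM were also of genes of the HSP70 family. AT3G09440 had 2820, 3666 and 2800 CPM in LSD1-GR+DEX and 460, 875 and 544 CPM in WT, and HSC70-1 had 4278, 4908 and 4322 CPM in LSD1-GR+DEX against 1826, 2370 and 2270 CPM in WT.

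Small heat shock proteins, which hold unfolding proteins in solution, headed the fold differences. HSP17.4 had 19.3, 129 and 17.64 CPM in LSD1-GR+DEX and 0.193, 0.449 and 0.189 CPM in WT (log2 7.56 ± 1.47, adjusted p = 0.0039). The groups did not overlap, and replicate 2 was far above the other LSD1-GR+DEX libraries. AT1G53540, annotated as an HSP20-like chaperone, had 3.85, 36.6 and 3.81 CPM in LSD1-GR+DEX and no read in any WT library, so that it was at least 155-fold higher against a floor of 3 counts over the WT group. Without replicate 2 of LSD1-GR+DEX, which held most of its reads, the bound was 41.0-fold. Its adjusted p was 0.023, but 0.052 without WT replicate 1, 0.059 without WT replicate 3 and 0.13 with LSD1-GR+DEX and WT fitted alone. HSP17.6A, HSP17.6II, the mitochondrial HSP23.6-MITO and AT1G07400 rose by 7.11, 6.79, 6.36 and 5.52 on the log2 scale. AT5G48570, annotated as an FKBP-type prolyl isomerase, rose by 5.02. Small heat shock genes are close copies of each other, so reads may be split among them.

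Replicate 2 carried much of the size of these values. Without replicate 2 of LSD1-GR+DEX, the log2 difference was 5.96 for HSP17.4, 5.48 for HSP17.6A, 5.30 for HSP17.6II, 4.57 for HSP23.6-MITO, 4.61 for AT1G07400, 4.21 for AT5G48570 and 4.34 for HSP90.1. Without WT replicate 2 it was 9.02 for HSP17.6A, 7.84 for HSP17.6II, 6.65 for AT1G07400, 5.93 for AT5G48570, 5.89 for HSP90.1 and 5.23 for HSP70. All of these kept an adjusted p below 0.05. The list then held 18 risen members and 1 fallen member without replicate 2 of LSD1-GR+DEX (median 2.74), and the same counts with replicate 2 of all 4 groups left out (median 3.36). Within the groups, 20 of the 22 genes were highest in replicate 2 of LSD1-GR+DEX, against 17 in WT, 20 in LSD1-GFP and 19 in lsd1-1.

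The summed level of the heat shock list, which a few abundant genes dominate, was lowest in WT; WT was not tested against the other untreated groups. The list summed to 5406, 11599 and 5503 CPM in LSD1-GR+DEX, 2783, 4103 and 2703 CPM in LSD1-GFP, 2091, 4400 and 2030 CPM in lsd1-1, and 527, 1099 and 578 CPM in WT. HSP70 had 656, 1046 and 700 CPM in LSD1-GFP and 389, 1120 and 417 CPM in lsd1-1, below every LSD1-GR+DEX library. Its differences did not pass the test (adjusted p = 0.077 against LSD1-GFP and 0.063 against lsd1-1). Of the 22 genes, 7 were higher in LSD1-GR+DEX than in LSD1-GFP (16.5% of all genes were) and 2 were higher than in lsd1-1 (9.40% of all genes were). The chaperones of the endoplasmic reticulum, BIP1 and BIP2, were those 2. BIP2 had 402, 373 and 444 CPM in LSD1-GR+DEX, 252, 280 and 293 CPM in LSD1-GFP, 240, 265 and 263 CPM in lsd1-1, and 134, 167 and 186 CPM in WT. Unlike the cytosolic chaperones it was not highest in replicate 2, and all LSD1-GR+DEX libraries lay above the 9 others (log2 against WT 1.33 ± 0.11, adjusted p = 1.8e-06). BIP1 and BIP2 are near-identical, so their reads may be divided between them. Of the transcription factors, HSFA7A rose by 2.84 and HSFB2A by 1.56 against WT.

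Heat shock factors bind repeats of the letters GAA and TTC. The 250 bases before the gene start of HSP17.4 and AT1G53540 are shown because each holds GAANNTTC and TTCNNGAA overlapping in a shared TTC. Capitals mark these matches, and the bases are those of the TAIR10.1 reference (accession Col-0, credited to RefSeq), not of the Ws-0 plants.
HSP17.4, chr3:16984868-16985117, minus strand: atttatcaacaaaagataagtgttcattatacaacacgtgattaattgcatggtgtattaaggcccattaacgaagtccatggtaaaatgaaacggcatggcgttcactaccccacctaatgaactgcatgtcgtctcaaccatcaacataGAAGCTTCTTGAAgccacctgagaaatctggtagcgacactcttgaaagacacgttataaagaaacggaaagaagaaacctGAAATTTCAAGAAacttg
AT1G53540, chr1:19980049-19980298, plus strand: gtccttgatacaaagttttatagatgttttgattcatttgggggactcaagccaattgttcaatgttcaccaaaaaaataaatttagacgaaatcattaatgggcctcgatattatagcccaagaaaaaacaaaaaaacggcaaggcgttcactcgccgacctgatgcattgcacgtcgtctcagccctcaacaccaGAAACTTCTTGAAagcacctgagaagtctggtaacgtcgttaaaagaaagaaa
The matches begin 99 and 18 bases (GAANNTTC) and 94 and 13 bases (TTCNNGAA) before the gene start of HSP17.4, and 53 and 48 bases before that of AT1G53540. GAANNTTC was found in 9.4% of the 19421 windows of tested genes, in 175 of 1245 windows (14.1%) of genes at least 2-fold higher in LSD1-GR+DEX, and in 28 of 412 windows (6.8%) of genes at least 2-fold lower. TTCNNGAA was found in 7.4% of all windows, 8.5% of those of the higher and 7.3% of those of the lower genes. Each was present in 6 of 22 windows (27.3%) of the heat shock list, but GAANNTTC was more frequent in the phosphate list (8 of 20, 40.0%) and TTCNNGAA in the morning clock list (4 of 13, 30.8%). Both are their own reverse complement, so a match counts on both strands; a match describes the letters and is not evidence of binding.

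Genes induced by oxidative stress and by disturbed mitochondria rose together: all 15 listed members were higher than in WT, with a median log2 difference of 2.63. Replicate 2 was the highest library for all 15 in LSD1-GR+DEX, 13 in WT, 14 in LSD1-GFP and 11 in lsd1-1. Without replicate 2 of LSD1-GR+DEX 14 were called higher and none lower, with a median of 2.09. AT2G21640, annotated as a marker for the oxidative stress response, had 67.5, 96.0 and 62.9 CPM in LSD1-GR+DEX and 11.1, 11.4 and 7.56 CPM in WT (7.52-fold; log2 2.91 ± 0.24, adjusted p = 4.9e-06). It had 6.64, 10.6 and 5.69 CPM in LSD1-GFP and 12.01, 14.9 and 9.90 CPM in lsd1-1, so that only the LSD1-GR+DEX libraries were high among the 4 groups. BCS1, an AAA-type ATPase of the outer mitochondrial membrane, had 143, 244 and 124 CPM in LSD1-GR+DEX, 35.0, 32.7 and 25.8 CPM in LSD1-GFP, 92.0, 102.5 and 74.7 CPM in lsd1-1, and 16.6, 22.1 and 15.2 CPM in WT (log2 against WT 3.24 ± 0.27, adjusted p = 9.4e-06). The order was LSD1-GR+DEX, lsd1-1, LSD1-GFP, WT, with no overlap between neighbours. The glutathione S-transferase gene GSTF7 had 335, 356 and 325 CPM in LSD1-GR+DEX, 48.5, 68.5 and 33.4 CPM in LSD1-GFP, 162, 187 and 129 CPM in lsd1-1, and 41.9, 53.1 and 31.7 CPM in WT (log2 3.00 ± 0.26 against WT). LSD1-GFP and WT overlapped, and GSTF7 shares reads with its close copy GSTF6, which rose by 2.83. All 15 genes were higher than in LSD1-GFP too (16.5% of all genes were), and 9 of them were higher than in lsd1-1 (9.40% of all genes were).

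The highest rises outside the chaperones were of AT2G04050 and AT2G38240. AT2G04050, annotated as an efflux transporter of the MATE family, had 85.1, 86.4 and 77.2 CPM in LSD1-GR+DEX and 1.35, 3.05 and 1.42 CPM in WT (42.1-fold; log2 5.39 ± 0.37, adjusted p = 2.3e-06). It had 6.44, 4.64 and 3.35 CPM in LSD1-GFP and 7.46, 15.2 and 5.97 CPM in lsd1-1, and replicate 2 of LSD1-GR+DEX did not stand apart. AT2G38240, annotated as a 2-oxoglutarate-dependent oxygenase, had 22.0, 27.0 and 22.9 CPM in LSD1-GR+DEX, 0.805, 0.757 and 0.508 CPM in LSD1-GFP, 7.36, 5.10 and 8.38 CPM in lsd1-1, and 0.675, 0.718 and 0.473 CPM in WT (log2 against WT 5.24 ± 0.24, adjusted p = 1.2e-08).

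The mitochondrial dysfunction motif (CTTG, any 5 bases, then CANG) is the pattern through which NAC transcription factors held at the endoplasmic reticulum act when respiration is disturbed. The windows of AT2G04050 and AT2G21640 are shown because each holds it, with the matches in capitals.
AT2G04050, chr2:1339469-1339718, minus strand: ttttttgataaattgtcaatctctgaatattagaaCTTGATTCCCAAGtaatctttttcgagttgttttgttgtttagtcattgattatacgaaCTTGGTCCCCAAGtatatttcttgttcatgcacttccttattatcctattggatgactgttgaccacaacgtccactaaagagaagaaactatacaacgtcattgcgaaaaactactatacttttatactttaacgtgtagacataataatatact
AT2G21640, chr2:9254128-9254377, plus strand: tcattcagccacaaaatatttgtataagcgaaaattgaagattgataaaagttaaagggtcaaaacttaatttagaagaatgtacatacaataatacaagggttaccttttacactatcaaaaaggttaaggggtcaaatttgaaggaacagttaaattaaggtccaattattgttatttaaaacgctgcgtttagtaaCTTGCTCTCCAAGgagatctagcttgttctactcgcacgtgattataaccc
Both sequences are again of the TAIR10.1 reference. The matches begin 215 and 156 bases before the gene start of AT2G04050 and 51 bases before that of AT2G21640. Either strand was searched, and the motif was present in 262 of 19421 windows (1.3%), in 47 of 1245 windows (3.8%) of genes at least 2-fold higher and in 4 of 412 windows (1.0%) of genes at least 2-fold lower. Among those 262 windows, 77 (29.4%) belonged to a gene that rose against WT and 41 (15.6%) to a gene that fell. Over all windows these shares were 19.3% and 16.7%. By list, the motif was in 2 of 15 windows (13.3%) for oxidative stress, 3 of 22 (13.6%) for heat shock and 2 of 13 (15.4%) for low oxygen. The motif occurred more than once in 7 windows, of which 4 belonged to genes called higher and 1 to a gene called lower.

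The other patterns searched on both strands of these windows were the evening element AAAATATCT, the G-box CACGTG, the W-box TTGACC, the GCC-box GCCGCC, the phosphate starvation element P1BS (GNATATNC), the abscisic acid element ACGTGTC and the cold and drought element GCCGAC. The W-box, which WRKY factors bind, was in 16.9% of windows of genes at least 2-fold higher, 7.3% of those of genes at least 2-fold lower and 12.2% of all windows. The G-box was in 10.2%, 8.7% and 7.3% of these sets, P1BS in 6.7%, 7.5% and 5.4%, and the evening element in 3.1%, 4.9% and 2.4%. The abscisic acid element was in 5.3%, 4.4% and 4.2%, the cold and drought element in 3.9%, 3.2% and 2.9%, and the GCC-box in 2.6%, 1.9% and 1.9%. P1BS was in 7 of 20 windows (35.0%) of the phosphate list, and the evening element in 5 of 13 windows (38.5%) of the day and evening clock list.

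**Figure D2:**
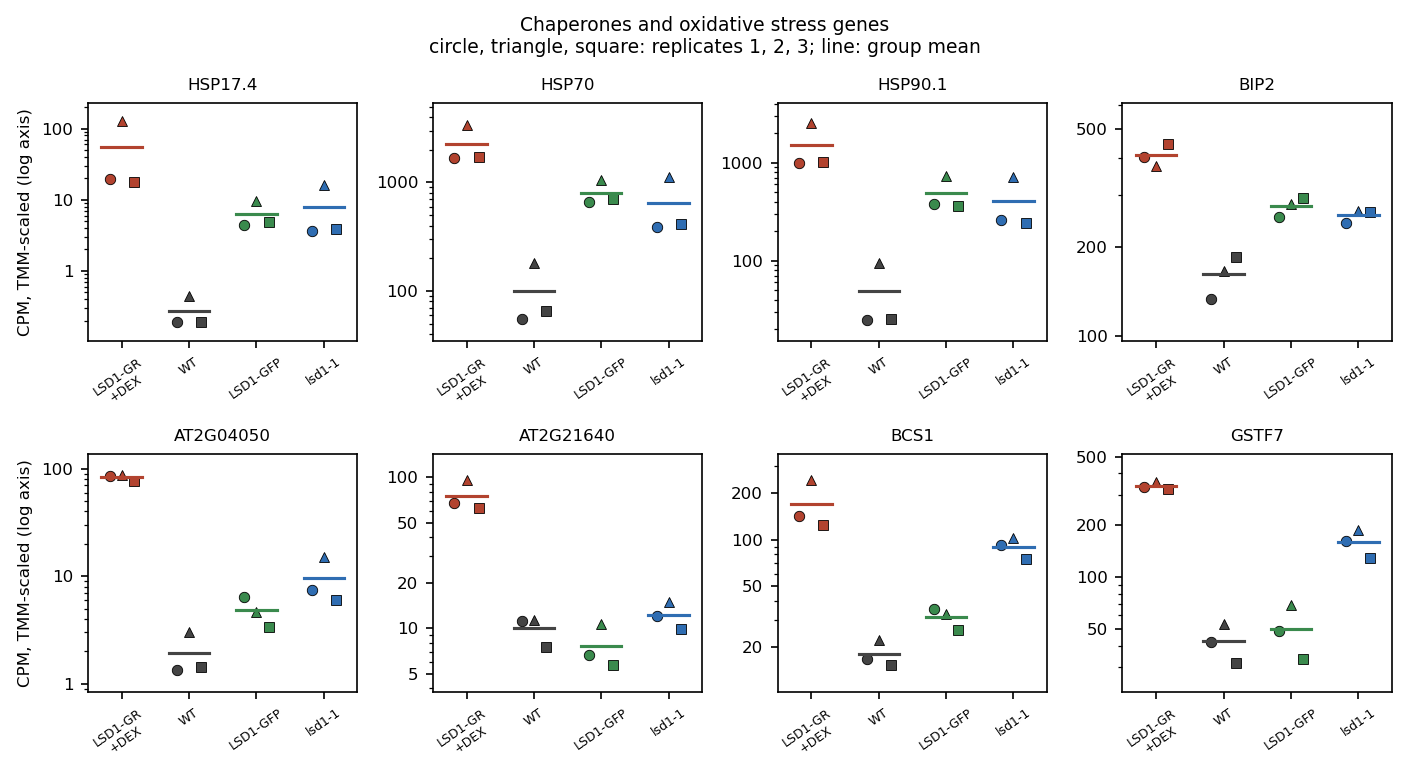
TMM-scaled CPM (log axis) of 8 chaperone and oxidative stress genes in each library of LSD1-GR+DEX, WT, LSD1-GFP and lsd1-1; symbols are replicates and lines are group means. HSP17.4, HSP70 and HSP90.1 were lowest in WT and highest in replicate 2 of each group, whereas AT2G04050 and AT2G21640 were high in the 3 LSD1-GR+DEX libraries alone.

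Antioxidant enzymes changed in part. Of 29 tested members, 10 rose and 4 fell, with a median log2 difference of 0.10; 2 fell without WT replicate 3 or without replicate 1 of LSD1-GR+DEX. MDAR2 and MDAR3, which reduce monodehydroascorbate, rose by 1.42 and 1.54, and DHAR1, which reduces dehydroascorbate, by 0.98. VTC2, which catalyses the committed step of ascorbate synthesis, had 2295, 2004 and 2297 CPM in LSD1-GR+DEX and 1136, 1307 and 1217 CPM in WT (log2 0.85 ± 0.09). The cytosolic copper/zinc superoxide dismutase gene CSD1 had 55.2, 38.6 and 55.4 CPM in LSD1-GR+DEX and 35.2, 23.3 and 29.3 CPM in WT (log2 0.77 ± 0.20, adjusted p = 0.011). Its plastid counterpart CSD2 had 51.1, 35.5 and 50.7 CPM in LSD1-GR+DEX and 41.8, 31.1 and 39.3 CPM in WT (adjusted p = 0.32), and the catalase CAT2 had 3413, 3934 and 3711 CPM in LSD1-GR+DEX and 3510, 3800 and 4453 CPM in WT (adjusted p = 0.53). For CAT2 the groups overlapped.

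Salicylic acid genes did not move as a block. Of 29 tested members, 10 rose, 3 fell and 16 did not pass the test (median 0.38); 5 fell without WT replicate 2 and also with replicate 2 of all 4 groups left out. PR1, the standard marker of this pathway, had 110, 12.7 and 95.8 CPM in LSD1-GR+DEX and 304, 112.5 and 178 CPM in WT. All LSD1-GR+DEX libraries were below all WT libraries, but replicate 2 was far below the others and the difference did not pass the test (log2 -1.44 ± 0.67, adjusted p = 0.13; 0.008 with replicate 2 of all 4 groups left out, log2 -1.24). PBS3, an enzyme of salicylic acid synthesis, had 7.79, 5.67 and 6.96 CPM in LSD1-GR+DEX and 14.8, 12.03 and 14.8 CPM in WT (log2 -1.02 ± 0.17, adjusted p = 0.00034). The transcription factor gene WRKY70 had 32.3, 34.2 and 35.0 CPM in LSD1-GR+DEX and 19.7, 10.5 and 15.1 CPM in WT (log2 1.17 ± 0.17, adjusted p = 0.00019), WRKY18 rose by 1.84, and UGT76B1, a glucosyltransferase that limits this response, rose by 1.4.

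Against lsd1-1 the same list lay low: 19 of 29 members were lower in LSD1-GR+DEX and 1 was higher (8.40% and 9.40% of all genes were), with a median log2 difference of -1.20. PBS3 had 63.1, 44.6 and 56.5 CPM in lsd1-1 (log2 -3.00, adjusted p = 1.0e-07) and WRKY70 had 72.7, 65.9 and 64.3 CPM (log2 -1.0, adjusted p = 0.00087). PR1 had 492, 354 and 358 CPM in lsd1-1 (log2 -2.46, adjusted p = 0.039) and 31.0, 12.1 and 21.8 CPM in LSD1-GFP, where the difference did not pass the test (adjusted p = 0.096). The order of the group means for PR1 was lsd1-1, WT, LSD1-GR+DEX and LSD1-GFP.

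Cell death regulators included 8 risen and 3 fallen members of 18 (median 0.52). The number of risen members was 5 without WT replicate 1 or without WT replicate 3. Replicate 2 of LSD1-GR+DEX was the highest of its group for 14 of the 18, and without it 8 rose and 2 fell, with a median of 0.27. LOL1, a related zinc finger protein known to promote cell death, had 7.16, 8.75 and 6.29 CPM in LSD1-GR+DEX and 23.1, 23.3 and 22.4 CPM in WT (log2 -1.63 ± 0.16, adjusted p = 6.8e-06). It was lower in LSD1-GR+DEX than in LSD1-GFP (log2 -1.09, adjusted p = 0.00023) and lsd1-1 (log2 -1.46, adjusted p = 6.3e-05) as well. BI1, an inhibitor of cell death in the endoplasmic reticulum, had 121, 177 and 117 CPM in LSD1-GR+DEX against 59.8, 59.95 and 52.0 CPM in WT (log2 1.27 ± 0.14). The metacaspase MC8 rose by 1.60 and RBOHD, the main NADPH oxidase of the immune response, by 0.74.

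Jasmonate genes rose widely. Of 27 tested members 20 were higher than in WT and none was lower, with a median log2 difference of 1.33. AOS, which makes the allene oxide from which jasmonate is formed, had 102.5, 115 and 99.4 CPM in LSD1-GR+DEX and 37.6, 37.7 and 40.5 CPM in WT (log2 1.45 ± 0.08, adjusted p = 5.3e-08). In LSD1-GFP it had 114, 121 and 119 CPM, which overlapped LSD1-GR+DEX, and in lsd1-1 46.6, 52.1 and 47.7 CPM. The repressor gene JAZ1, itself a jasmonate target, had 55.0, 85.7 and 56.5 CPM in LSD1-GR+DEX and 11.8, 14.6 and 14.6 CPM in WT (log2 2.26 ± 0.19, adjusted p = 3.2e-06). AOC3 and OPCL1, enzymes of the same synthesis, rose by 1.89 and 1.33. Replicate 2 of LSD1-GR+DEX was the highest of its group for 23 of the 27 genes; without it 16 were called higher, with a median of 1.08. Against LSD1-GFP 11 members were higher and 4 lower (16.5% and 16.2% of all genes were). Against lsd1-1 13 were higher and 2 lower (9.40% and 8.40% of all genes were).

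Plant defensins, small antifungal proteins induced by jasmonate with ethylene, were among the genes that set LSD1-GR+DEX furthest apart. PDF1.2A had 325, 153 and 298 CPM in LSD1-GR+DEX, 11.4, 4.16 and 8.63 CPM in LSD1-GFP, 84.3, 25.8 and 77.2 CPM in lsd1-1, and 29.9, 42.2 and 25.0 CPM in WT (log2 against WT 3.00 ± 0.50, adjusted p = 0.0016). PDF1.3 had 34.8, 18.1 and 29.5 CPM in LSD1-GR+DEX, at most 0.102 CPM in LSD1-GFP, 3.29, 0.186 and 2.94 CPM in lsd1-1, and 0.964, 0.897 and 0.756 CPM in WT (log2 against WT 4.96 ± 0.53, adjusted p = 4.3e-05). For both genes replicate 2 was the lowest LSD1-GR+DEX library, yet it lay above all 9 untreated libraries. PDF1.2C rose by 3.61 and by 4.26 with replicate 2 of all 4 groups left out, and PDF1.1 by 4.80. These genes are near-identical copies, so the division of reads among them is uncertain. Of the 21 members of the ethylene and jasmonate list, 11 rose and 1 fell (median 0.80); ACS2, an enzyme of ethylene synthesis, rose by 2.63 and the basic chitinase HCHIB by 0.92.

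Genes for sulfur-rich and aromatic defence compounds rose. The indole list held 11 risen and no fallen members of 13 (median 1.62), the aliphatic glucosinolate list 10 and none of 13 (median 0.98). CYP71A12, a cytochrome P450 of the camalexin and indole carbonitrile pathways, had 64.8, 62.4 and 62.6 CPM in LSD1-GR+DEX, 3.02, 6.72 and 2.44 CPM in LSD1-GFP, 38.1, 35.4 and 32.9 CPM in lsd1-1, and 3.66, 3.86 and 3.59 CPM in WT (17.0-fold against WT; log2 4.09 ± 0.22, adjusted p = 1.2e-07). LSD1-GFP and WT overlapped and lsd1-1 lay between them and LSD1-GR+DEX; CYP71A12 may share reads with its close copy CYP71A13. CYP79B2 and CYP83B1, which turn tryptophan towards indole glucosinolates, rose by 1.92 and 1.76. The aliphatic genes CYP83A1, BCAT4 and SOT17 rose by 0.99, 1.13 and 1.17 against WT, but differed from LSD1-GFP by only 0.05, 0.09 and 0.08 (adjusted p = 0.68, 0.61 and 0.67). Of 15 genes for flavonoids and anthocyanins 13 rose and 1 fell (median 1.51), among them the chalcone synthase gene TT4 (1.59), the flavonol synthase gene FLS1 (1.78), DFR (2.04) and MYB75, a transcription factor that turns on anthocyanin synthesis (2.38). Against LSD1-GFP 6 were higher (16.5% of all genes were; median 0.40) and against lsd1-1 9 were (9.40% of all genes were), with none lower. The list summed to 439, 494 and 409 CPM in LSD1-GR+DEX, 352, 456 and 336 CPM in LSD1-GFP, and 182, 204 and 167 CPM in WT.

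**Figure D3:**
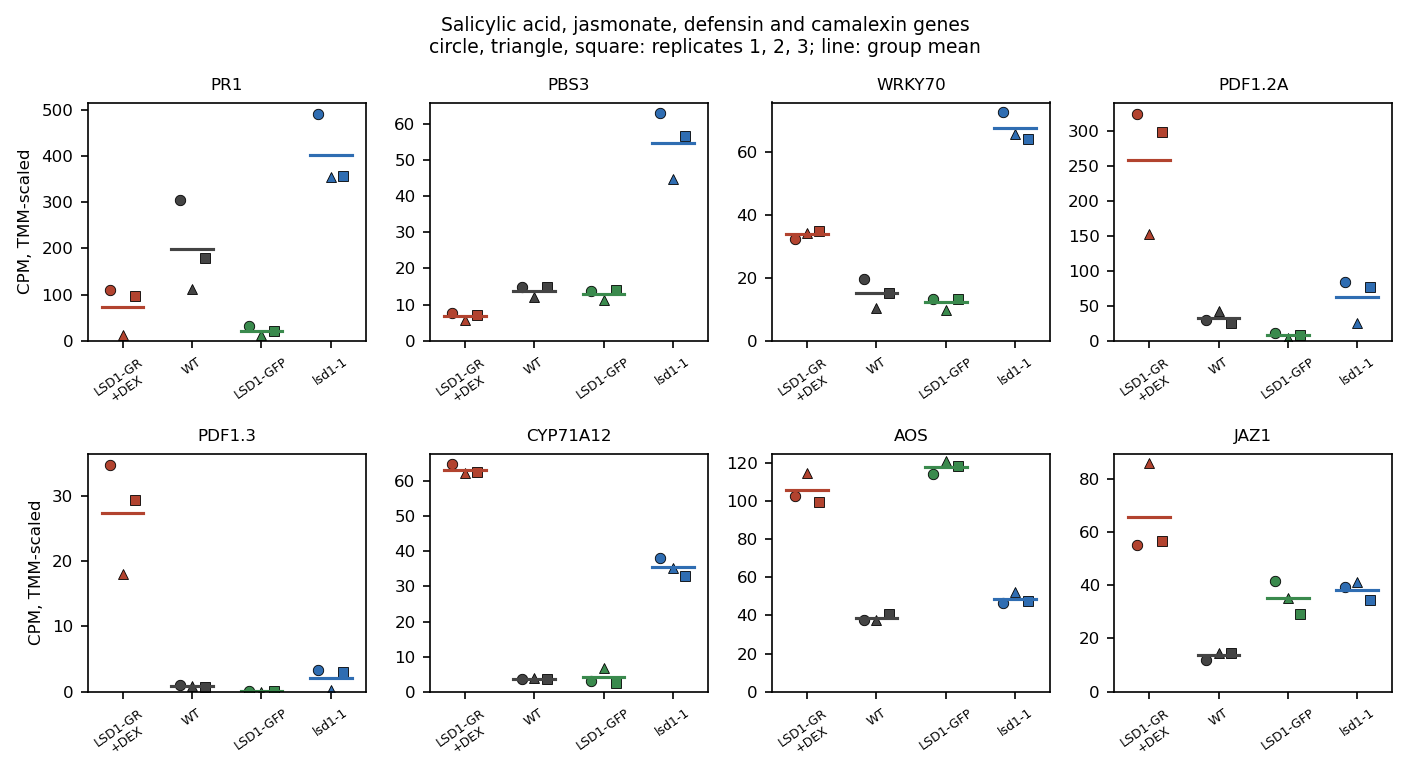
TMM-scaled CPM of 8 salicylic acid, jasmonate, defensin and camalexin genes in each library of LSD1-GR+DEX, WT, LSD1-GFP and lsd1-1; symbols are replicates and lines are group means. PR1 and PBS3 were lower in LSD1-GR+DEX than in WT and highest in lsd1-1, but for PR1 the difference from WT did not pass the test. PDF1.2A and PDF1.3 were higher in each LSD1-GR+DEX library than in any library of the other groups.

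Early genes of the touch and wound response held 11 risen and 1 fallen member of 21 (median 0.86). The transcription factor gene WRKY33 had 76.5, 159 and 82.2 CPM in LSD1-GR+DEX and 43.0, 41.9 and 35.4 CPM in WT (log2 1.4 ± 0.26; 0.96 without replicate 2 of LSD1-GR+DEX). Replicate 2 of LSD1-GR+DEX was the highest of its group for 20 of the 21 genes. The number of risen members was 8 without that library, 7 without WT replicate 1 and 5 without WT replicate 3. The fallen gene was XTH25, for a cell wall enzyme, which was lower by 2.09. In the test against a 1.5-fold change, 1 member rose. Against LSD1-GFP 2 members were higher and none was lower (16.5% and 16.2% of all genes were). Against lsd1-1 none was higher and 1 was lower (9.40% and 8.40% of all genes were), with a median of -0.08. The list summed to 625, 1260 and 607 CPM in LSD1-GR+DEX and 926, 913 and 839 CPM in lsd1-1.

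Genes of mineral nutrition moved strongly. Plants answer iron shortage through bHLH transcription factors that switch on uptake genes, and sulfur shortage through transporters and enzymes that reduce sulfate. Of 22 iron genes 16 rose and 1 fell against WT (median 1.26), and of 15 sulfate genes 13 rose and none fell (median 1.15). BHLH101, one of these iron regulators, had 30.2, 15.2 and 31.4 CPM in LSD1-GR+DEX and 2.99, 1.97 and 3.21 CPM in WT (9.39-fold; log2 3.23 ± 0.29, adjusted p = 4.3e-06). BTS, a ubiquitin ligase that senses iron and damps the response, had 939, 671 and 907 CPM in LSD1-GR+DEX and 208, 207 and 204 CPM in WT (log2 2.02 ± 0.16, adjusted p = 1.7e-06). In both, replicate 2 was the lowest LSD1-GR+DEX library but above all 9 untreated libraries, which held at most 3.34 CPM of BHLH101 and 328 CPM of BTS. NAS4, which makes the metal chelator nicotianamine, and the regulator PYE rose by 1.27 and 1.1. Of other members, chosen after their values were seen, the reductase gene FRO2 and the transporter gene IRT1 of root iron uptake rose by 2.13 and 1.58, and FER4, an iron-storing ferritin, fell by 1.26. Against lsd1-1, 17 members were higher and 1 lower (9.40% and 8.40% of all genes were). Against LSD1-GFP, 13 were higher and 6 lower (16.5% and 16.2% of all genes were).

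The sulfate transporter gene SULTR1;2 had 224, 240 and 237 CPM in LSD1-GR+DEX and 48.1, 63.4 and 39.4 CPM in WT (4.64-fold; log2 2.21 ± 0.21, adjusted p = 1.5e-05). APR1, which reduces activated sulfate, had 362, 396 and 357 CPM in LSD1-GR+DEX and 84.4, 88.2 and 102.5 CPM in WT (log2 2.02 ± 0.17, adjusted p = 4.3e-06). The 3 LSD1-GR+DEX libraries were close together for both genes and lay above all 9 untreated libraries. LSU1, a marker of low sulfur, rose by 2.90 and APR3 by 0.82. The list also rose against LSD1-GFP (11 of 15, with 16.5% of all genes higher) and lsd1-1 (12 of 15, with 9.40% of all genes higher). No member was lower in either.

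Phosphate genes included 14 risen and 2 fallen members of 20 (median 1.12), which did not all follow the course known from phosphate shortage. PHO2, a ubiquitin-conjugating enzyme that limits phosphate uptake, had 140, 163 and 136 CPM in LSD1-GR+DEX and 63.8, 71.5 and 72.5 CPM in WT (log2 1.08 ± 0.09, adjusted p = 1.2e-06). The transporter gene PHT1;4 and the sulfolipid gene SQD2 rose by 1.2 and 1.00. AT4, a non-coding RNA that is known to accumulate when phosphate is short, had 15.7, 21.3 and 18.0 CPM in LSD1-GR+DEX and 52.4, 56.4 and 37.6 CPM in WT (log2 -1.41 ± 0.16).

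Nitrogen genes leaned the other way, with 3 risen and 8 fallen members of 20 (median -0.31). The nitrate reductase genes NIA1 and NIA2 fell. NIA1 had 178, 215 and 190 CPM in LSD1-GR+DEX and 553, 414 and 689 CPM in WT (log2 -1.51 ± 0.18, adjusted p = 6.3e-05), and NIA2 had 1314, 1432 and 1270 CPM in LSD1-GR+DEX against 2758, 2497 and 3031 CPM in WT (log2 -1.04 ± 0.09). ASN2, an asparagine synthetase, had 457, 401 and 464 CPM in LSD1-GR+DEX and 1400, 1178 and 1380 CPM in WT (log2 -1.58 ± 0.09, adjusted p = 9.6e-08). LSD1-GR+DEX was the lowest of the 4 groups for NIA1, NIA2 and ASN2, without overlap.

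Several nutrient genes are root genes, and some markers of roots were also higher in LSD1-GR+DEX than in WT, though not in every library. The part of roots in the nutrient results beyond the values given here was not tested. Of 20 listed root markers 18 could be tested, all with reads in both groups; 8 were called higher than in WT and none lower (median 0.84). PYK10, a myrosinase-type glucosidase abundant in roots and hypocotyls, made up most of their sum, with 2389, 2722 and 2441 CPM in LSD1-GR+DEX and 1226, 1245 and 948 CPM in WT (log2 1.14 ± 0.16, adjusted p = 9.7e-05). The sum of the others was 334, 167 and 366 CPM in LSD1-GR+DEX and 177, 172 and 224 CPM in WT. Replicates 1 and 3 of LSD1-GR+DEX were above WT, and replicate 2 was below all 3 WT libraries. Of the 18 genes, 17 were lowest in replicate 2 of LSD1-GR+DEX, and for only 2 did the groups not overlap. The number of called markers was 14 without that library, and 1 without replicate 1 or without replicate 3 of LSD1-GR+DEX, without WT replicate 1 or without WT replicate 2. The root hair genes RSL4 and EXPA7 and the peroxidase gene RCI3 (log2 1.28, 1.1 and 0.89) lost their calls when either of the LSD1-GR+DEX replicates 1 and 3 was left out, with adjusted p from 0.052 to 0.15. With PYK10 the root marker sum was 2723, 2889 and 2807 CPM in LSD1-GR+DEX, highest in replicate 2, and 1403, 1417 and 1172 CPM in WT. The iron list summed to 3415, 2354 and 3358 CPM in LSD1-GR+DEX and 1138, 1031 and 1159 CPM in WT, and the sulfate list to 2287, 2542 and 2265 CPM in LSD1-GR+DEX and 1279, 1224 and 1406 CPM in WT.

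**Figure D4:**
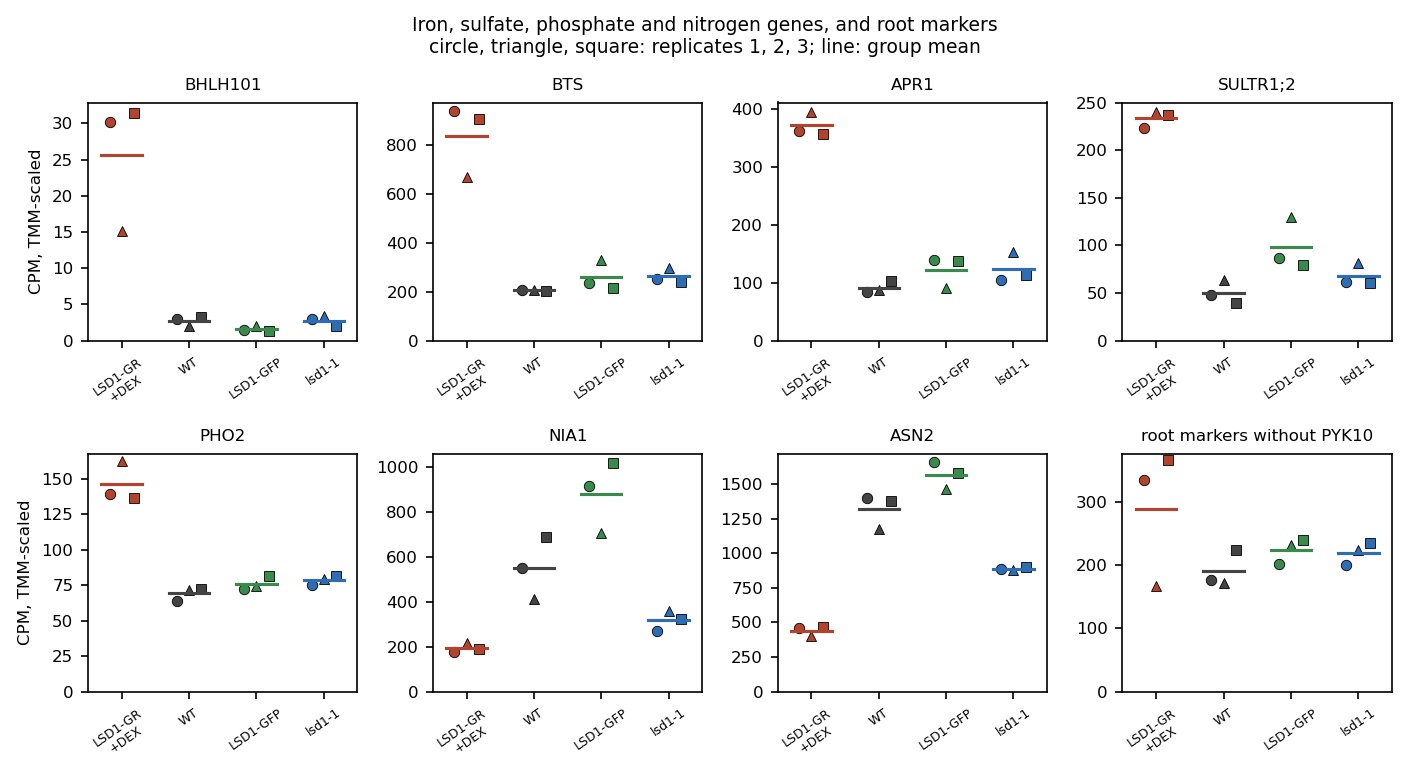
TMM-scaled CPM of iron, sulfate, phosphate and nitrogen genes, and the sum over the root markers without PYK10, in each library of LSD1-GR+DEX, WT, LSD1-GFP and lsd1-1; symbols are replicates and lines are group means. Replicate 2 of LSD1-GR+DEX (triangle) had a root marker sum without PYK10 of 167 CPM, below WT, and 2889 CPM with PYK10; it had 240 CPM of SULTR1;2 and 671 CPM of BTS.

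Few markers of other cell types were called. None of 8 guard cell, 9 vascular and 3 meristem and flower organ markers passed the test against WT in edgeR, DESeq2 or limma voom, and 1 guard cell, 1 vascular and 0 meristem and flower organ markers had an unadjusted p below 0.05 in edgeR. Of 7 epidermis markers 1 was lower. Their sums overlapped between the groups, with 119 to 138 CPM in LSD1-GR+DEX and 107 to 142.5 CPM in WT for guard cells, 171 to 235 CPM and 148.5 to 253 CPM for vascular tissue, and 1441 to 1698 CPM and 1354 to 1648 CPM for epidermis. The epidermal gene FDH, which serves in making cuticular lipids, was lower by 0.35 (adjusted p = 0.010; 0.087 with replicate 2 of all 4 groups left out). Photosynthesis genes, which mark green tissue, summed to 70404 to 74163 CPM in LSD1-GR+DEX and 75087 to 92392 CPM in WT.

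Photosynthesis genes fell by small amounts: 22 of 40 were lower than in WT and 3 were higher (median -0.28), the number of fallen genes was 14 without replicate 1 of LSD1-GR+DEX, and that of risen genes was 5 without WT replicate 3 and 1 without any of WT replicates 1 and 2 or replicate 2 of LSD1-GR+DEX. LHCB1.3, a light-harvesting protein of photosystem II with near-identical copies, had 3100, 3167 and 3286 CPM in LSD1-GR+DEX and 4492, 4907 and 6268 CPM in WT (log2 -0.71 ± 0.13, adjusted p = 0.00074). The photosystem I genes PSAF and PSAN fell by 0.73 and 0.61. The small subunit gene of Rubisco RBCS1A was lower by 0.34 (adjusted p = 0.030), a call lost without WT replicate 3 (0.094) and without replicates 1 (0.12) or 3 (0.069) of LSD1-GR+DEX. Of 9 genes for chlorophyll synthesis 6 fell and none rose (median -0.28). HEMA1, which starts the tetrapyrrole pathway, had 134, 205 and 137 CPM in LSD1-GR+DEX and 330, 323 and 412 CPM in WT (log2 -1.16 ± 0.15, adjusted p = 6.0e-05). In LSD1-GFP the photosynthesis genes summed to 115286 to 130738 CPM, and 37 of the 40 were lower in LSD1-GR+DEX than there (16.2% of all genes were).

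Cytokinin response genes fell. The type-A response regulators (ARR) are direct targets of this hormone, which promotes cell division and leaf growth, and they damp its signal. Of 12 listed genes 10 could be tested, of which 8 fell and none rose (median -1.37). ARR15 had 5.19, 2.403 and 5.25 CPM in LSD1-GR+DEX and 42.2, 20.9 and 39.4 CPM in WT (log2 -2.99 ± 0.32, adjusted p = 3.4e-05). ARR7 had 40.7, 48.5 and 45.4 CPM in LSD1-GR+DEX and 171, 116 and 134 CPM in WT (log2 -1.65 ± 0.15, adjusted p = 4.9e-06). ARR4, ARR8 and ARR9 fell by 1.34, 1.25 and 1.32. The groups did not overlap for any of these 5 genes, but WT was also the highest of all 4 groups. ARR7 had 27.0, 24.7 and 26.6 CPM in LSD1-GFP, below LSD1-GR+DEX, and 64.4, 43.7 and 52.0 CPM in lsd1-1, which overlapped LSD1-GR+DEX. Against LSD1-GFP no member was lower and 3 were higher (16.2% and 16.5% of all genes were). Against lsd1-1 5 were lower and none was higher (8.40% and 9.40% of all genes were).

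Growth genes included some of the largest falls. HBI1, a bHLH factor that promotes cell elongation and lowers immunity, had 13.3, 10.8 and 16.4 CPM in LSD1-GR+DEX, 35.5, 27.8 and 31.5 CPM in LSD1-GFP, 55.6, 31.9 and 53.1 CPM in lsd1-1, and 102, 91.3 and 91.9 CPM in WT (7.03-fold lower than WT; log2 -2.81 ± 0.20, adjusted p = 1.7e-06). EXPA1, an expansin that loosens cell walls, had 152, 100.0 and 151 CPM in LSD1-GR+DEX, 301, 231 and 327 CPM in LSD1-GFP, 509, 354.5 and 574 CPM in lsd1-1, and 499, 540 and 556 CPM in WT (log2 against WT -1.99 ± 0.20). LSD1-GR+DEX was the lowest group for both, without overlap. Of 14 cell expansion genes 6 fell and 2 rose (median -0.45), with EXPA10, XTH4 and EXPA11 lower by 0.82, 0.76 and 0.62; CPD, of brassinosteroid synthesis, was lower by 0.68. Genes of DNA replication rose at the same time: 11 of 18 were higher than in WT and none was lower (median 0.52), among them TSO2, a ribonucleotide reductase subunit (1.32), PCNA2 (0.96), MCM2 (0.88) and MCM5 (0.69). In the test against a 1.5-fold change, 1 of the 18 rose. Against LSD1-GFP 3 were higher (16.5% of all genes were) and against lsd1-1 2 were (9.40% of all genes were), with none lower. Replicate 2 was the lowest LSD1-GR+DEX library for 13 of the 18. Of 16 genes for ribosomes and their assembly 5 rose, by at most 0.55.

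Genes of the low oxygen response fell. Plants switch them on through ethylene response factors that are stable only without oxygen, and the plant cysteine oxidases mark these factors for breakdown. Of 13 members 8 fell and 3 rose (median -1.31). ADH1, alcohol dehydrogenase, had 4.83, 4.13 and 2.96 CPM in LSD1-GR+DEX, 22.0, 21.2 and 29.2 CPM in LSD1-GFP, 23.5, 15.0 and 26.1 CPM in lsd1-1, and 22.5, 28.4 and 25.4 CPM in WT (6.37-fold lower than WT; log2 -2.67 ± 0.23, adjusted p = 3.9e-06). The cysteine oxidase gene PCO2 had 0.716, 0.673 and 0.763 CPM in LSD1-GR+DEX and 7.52, 5.03 and 5.76 CPM in WT (log2 -3.07 ± 0.28, adjusted p = 3.4e-06). In each of the untreated groups PCO2 had at least 4.45 CPM and ADH1 at least 15.0 CPM. PCO1 and the LBD41 gene fell by 2.33 and 2.03. Against LSD1-GFP and against lsd1-1, 9 members were lower and 2 higher in each. Over all genes, 16.2% were lower and 16.5% higher than in LSD1-GFP, and 8.40% and 9.40% than in lsd1-1.

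**Figure D5:**
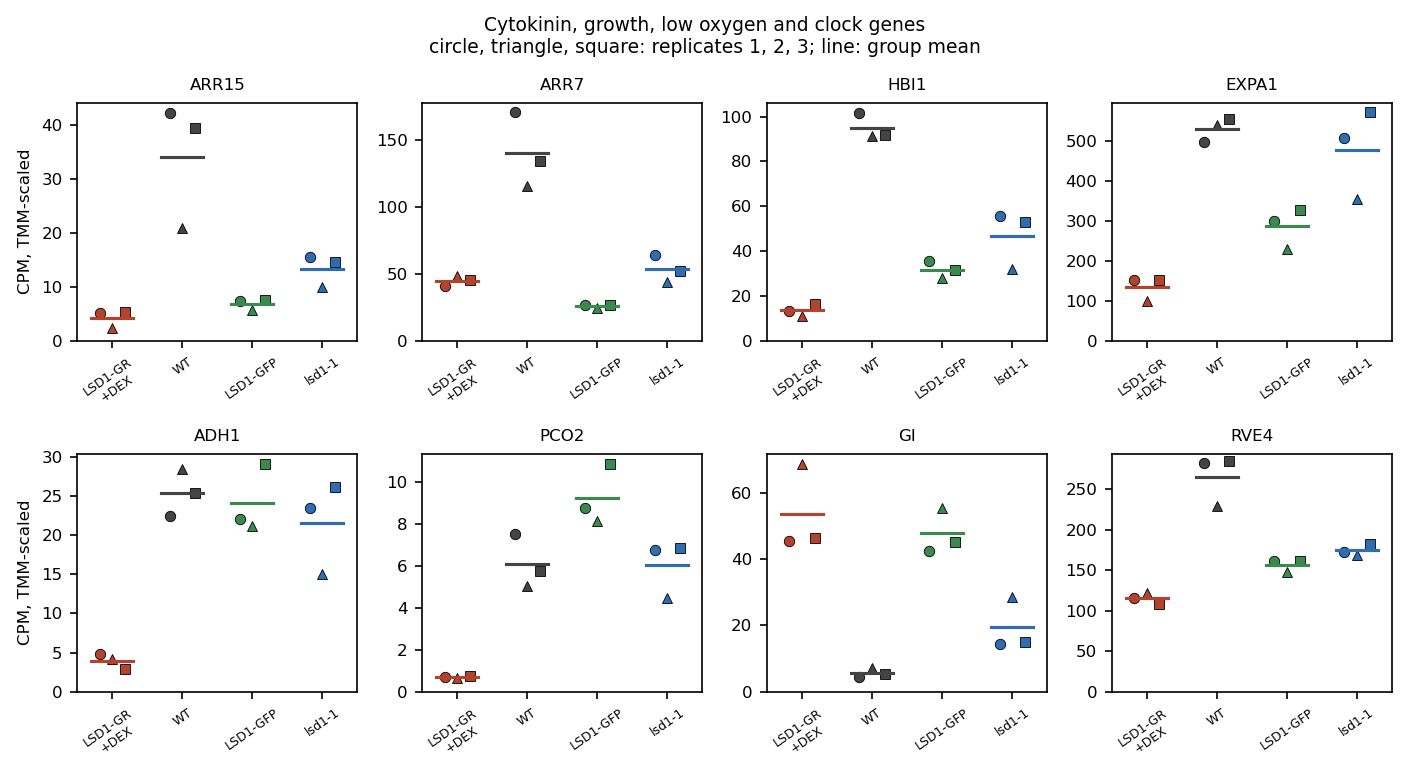
TMM-scaled CPM of cytokinin response, growth, low oxygen and clock genes in each library of LSD1-GR+DEX, WT, LSD1-GFP and lsd1-1; symbols are replicates and lines are group means. ADH1 and PCO2 were low in LSD1-GR+DEX alone, whereas ARR15, ARR7 and GI set WT apart from all other groups.

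Clock genes differed, and the hour of harvest is not known for any group. Of 13 morning genes 10 were lower in LSD1-GR+DEX than in WT and 2 were higher (median -0.39); 6 were lower without replicate 3 of LSD1-GR+DEX. RVE4 had 115, 122 and 108 CPM in LSD1-GR+DEX and 283, 229 and 285 CPM in WT (log2 -1.21 ± 0.09, adjusted p = 8.1e-07). The central pair CCA1 and LHY were lower by 0.36 each (adjusted p = 0.015 and 0.0058); the call of CCA1 was lost without WT replicate 2 (0.057) or replicate 3 of LSD1-GR+DEX (0.063), and that of LHY with replicate 2 of all 4 groups left out (0.057). GI, a gene of the late day, had 45.5, 68.6 and 46.4 CPM in LSD1-GR+DEX, 42.6, 55.4 and 45.2 CPM in LSD1-GFP, 14.3, 28.7 and 15.1 CPM in lsd1-1, and 4.34, 7.27 and 5.29 CPM in WT (log2 against WT 3.24 ± 0.31, adjusted p = 2.1e-05). LSD1-GR+DEX and LSD1-GFP overlapped. Of 13 day and evening genes 3 rose and 2 fell against WT (median 0.21), near the shares over all genes of 19.3% and 16.7%. LUX was higher by 0.70, and the repressor gene CHE and ELF3 were lower by 1.79 and 0.40.

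Of 27 abscisic acid, cold and drought genes 7 fell and 3 rose (median -0.14); the fallen ones numbered 12 without replicate 2 and 4 without replicate 3 of LSD1-GR+DEX. The phosphatase gene PP2CA had 41.9, 80.8 and 40.2 CPM in LSD1-GR+DEX and 170, 165 and 152 CPM in WT (log2 -1.58 ± 0.23), CBF2 was lower by 3.04, and GOLS1, for galactinol synthesis, was higher by 1.68. Of 13 flowering genes 6 fell and none rose (median -0.51), SPL3 by 1.37, SPL5 by 1.14, FUL by 0.99 and SOC1 by 0.57. Of 17 senescence and sugar starvation genes 9 fell and 4 rose (median -0.62). GPT2, a plastid glucose phosphate transporter, had 15.8, 30.5 and 16.6 CPM in LSD1-GR+DEX and 1.74, 1.44 and 1.32 CPM in WT (log2 3.80 ± 0.29, adjusted p = 1.2e-06), whereas SAG21 had 322, 658 and 283 CPM in LSD1-GR+DEX and 1810, 1443 and 1465 CPM in WT (log2 -1.90 ± 0.29, adjusted p = 0.00061). Of 13 auxin genes 3 rose and 2 fell (median 0.01), near the shares over all genes of 19.3% higher and 16.7% lower. GH3.3 and GH3.2 were higher by 2.04 and 1.21, and IAA3 and IAA14 were lower by 0.98 and 0.57. The call of IAA14 was lost without WT replicate 2 (adjusted p = 0.085), replicate 2 (0.058) or replicate 3 (0.061) of LSD1-GR+DEX. Of 10 genes for light acclimation and shade 2 rose and 1 fell (median -0.15), again near the shares over all genes. ELIP1, which protects against excess light, rose by 1.64 and ELIP2 by 0.52, a call that was lost without any 1 of the 3 LSD1-GR+DEX libraries (adjusted p from 0.054 to 0.10), without WT replicate 2 (0.14) and without WT replicate 3 (0.052).

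The contrast with the 9 untreated libraries together sets LSD1-GR+DEX against the mean of WT, LSD1-GFP and lsd1-1. A single untreated group can therefore drive a call. Against the mean of the 3 untreated groups 6438 genes (33.0%) were called, 3488 higher and 2950 lower. Of these, 1450 higher and 1330 lower genes reached 5 CPM and did not overlap any untreated library; over all genes tested, the LSD1-GR+DEX libraries lay apart from the 9 others for 16.3%. The 8 largest rises of this kind were those of PDF1.3, PDF1.2C, HSP17.4, AT2G04050, AT2G38240 and BHLH101, given above, and of AT5G13210 and AT5G55150. Among them, HSP17.4 was not called against lsd1-1 alone. AT5G13210, annotated as a conserved protein of no stated function, had 86.5, 107 and 74.4 CPM in LSD1-GR+DEX, 6.44, 5.68 and 5.99 CPM in LSD1-GFP, 11.04, 15.9 and 10.3 CPM in lsd1-1, and 6.46, 6.91 and 6.05 CPM in WT (log2 against WT 3.78 ± 0.17, adjusted p = 1.2e-08). AT5G55150, annotated as an F-box protein, rose by 4.89 against WT, and by 4.16 without replicate 2 of LSD1-GR+DEX.

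The largest fall of this kind was of FTM1, annotated as a stearoyl carrier protein desaturase. It had 1.61, 0.673 and 0.763 CPM in LSD1-GR+DEX, 19.8, 25.8 and 36.9 CPM in LSD1-GFP, 16.3, 12.2 and 21.4 CPM in lsd1-1, and 12.9, 15.1 and 23.8 CPM in WT (16.6-fold lower than WT; log2 -4.06 ± 0.44, adjusted p = 4.4e-05). PCR1, named for plant cadmium resistance, had 4.74, 3.08 and 2.58 CPM in LSD1-GR+DEX, 19.3, 8.33 and 15.5 CPM in LSD1-GFP, 124, 74.3 and 104 CPM in lsd1-1, and 16.1, 10.4 and 13.8 CPM in WT. It was lower than in WT by 1.94 on the log2 scale and lower than in lsd1-1 by 4.85. NEET, an iron-sulfur protein, had 4.74, 12.4 and 4.101 CPM in LSD1-GR+DEX and 39.1, 35.1 and 32.7 CPM in WT (log2 -2.34 ± 0.33; -3.03 without replicate 2 of LSD1-GR+DEX). AT1G11210 was lower than in WT by 2.44, and by 3.79 without that library. AT1G33055 and AT1G19530 were lower by 2.86 and 2.78; ADH1 and PCO2, given above, completed the 8. Against WT alone, the largest falls also included AT4G36850 (log2 -2.82), TRFL8 (-2.81) and the protein kinase gene CIPK20 (-2.79).

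Against lsd1-1 3469 genes (17.8%) were called, 1832 higher and 1637 lower, and 6386 (32.8%) differed from LSD1-GFP, 3223 higher and 3163 lower. The 3 comparisons share the LSD1-GR+DEX libraries. The count against lsd1-1 was 2058 without replicate 1 and 2236 without replicate 3 of lsd1-1.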

How the data were processed

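Reads per gene were taken as the counts that the authors deposited, 1 column per library; per the submitters' processing notes, Trimmomatic 0.30, GSNAP 2013-02-05, HTSeq 0.6.1 and the TAIR10 build were used. Per the labels' protocols, RNA came from 3 biological repeats per group and libraries from a stranded mRNA kit; the strand setting of the counting is not given in the sources used here, so reads of overlapping or antisense genes are uncertain. Reads of Ws-0 plants were counted on a Col-0 reference, in all groups alike. The 19487 genes kept by edgeR's filterByExpr were fitted with TMM scaling and the robust quasi-likelihood F test (edgeR 4.0.16, R 4.3.3) over 12 libraries and 4 group means, with Benjamini-Hochberg adjustment over all genes and calls at 0.05. SE is the log2 difference divided by the square root of F. CPM are TMM-scaled. DESeq2 1.42.0, limma 3.58.1 (voom), other scalings and filters, a replicate block and left-out libraries were tried as alternatives. Named genes are LSD1; the 10 largest called, non-overlapping rises and falls of at least 5 CPM; the 5 largest by CPM; up to 4 called members of each list with the lowest adjusted p; the 8 largest rises and falls apart from all 9 untreated libraries; and PR1, PDF1.2A, CSD1, CSD2, CAT2, RBCS1A, GI, HSP70, CCA1 and LHY. The comparison and the lists were chosen with earlier results of these data known.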

Additional observations from a re-analysis of the deposited data

How the results depend on the processing

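The number of genes called against WT stayed within 1.5 times 7015 under other size factors (7062), DESeq2 (6597), limma voom (6941), no filter (6784), a filter at 5 CPM (6435), the 2 groups fitted alone (6151), and a left-out library (5566 to 6526). With replicate 2 of all 4 groups left out, an alternative chosen after seeing the data, it was 6002. A test against a 1.5-fold change called 1305 genes against WT (71.6% of them higher, against 53.6% before), 1140 against LSD1-GFP, 420 against lsd1-1 and 890 against the mean of the 3 untreated groups. With a library left out, 4996 to 6165 genes were called against LSD1-GFP, 2058 to 3502 against lsd1-1 and 4702 to 6559 against the mean of the 3. Same-numbered libraries of LSD1-GR+DEX and WT deviated together with correlations of 0.0355, 0.220 and 0.314 for replicates 1, 2 and 3. With the other WT libraries the correlations were -0.108 and 0.0628, -0.266 and 0.101, and -0.171 and -0.211. Replicates 2 and 3 were thus more alike to the WT library of the same number than to the others, and replicate 1 was not. The labels do not state that the numbers pair the libraries, so the main fit used no block. What the libraries of a number share was not tested. A fit with the replicate number as a block called 8541 genes against WT, 8027 against LSD1-GFP, 5335 against lsd1-1 and 8078 against the mean of the 3, and no called named gene lost its call. Of 2390 alternative values for 160 named genes, 2302 kept their direction and side of the threshold, 83 lost a call, 5 gained one and 0 reversed; 43 genes lost their call under the 1.5-fold test. PR1 passed the test under limma voom (log2 -1.83, adjusted p = 0.0337) and the block (-1.54, 0.0417). Genes at few counts, such as AT1G53540 in WT, are limited by depth.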
